A study of Arabidopsis thaliana with 16 samples.

Results

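Hypocotyls carrying the brassinosteroid receptor BRL3 under a general promoter were compared with hypocotyls carrying it under a phloem promoter, both grown at 22 °C. The comparison used 4 of the series' 16 RNA sequencing libraries, 2 per line, taken by their labels, and covered the 20505 genes that passed a filter on low counts. The line BRL3ox carried 35S:BRL3-GFP, and the labels do not give its genetic background. The line pSUC2:BRL3;brl3-2, written pSUC2-BRL3 here, carried pSUC2::BRL3-GFP in the mutant brl3-2, which has a T-DNA insertion in BRL3. Seedlings of both lines were 6 days old and were raised on plates in long days, and the hypocotyl, the embryonic stem, was dissected. The same lines at 28 °C, and the wild type Col-0 and brl3-2 at 22 °C, each with 2 libraries, were used for side values. Whether each line stands for 1 insertion event is not given in the labels, so a difference that belongs to an insertion and one that belongs to the promoter cannot be told apart. Whether BRL3ox also carries an intact BRL3 is likewise not given, and reads from a transgene and from the gene itself cannot be told apart. The replicates are called biological, but separate growth or harvest is not described. The p-values rest on a spread between replicates estimated over all 16 libraries, and that spread may be technical. Replicates of BRL3ox at 22 °C lay farther apart than those of any other group.

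Brassinosteroids are steroid hormones that bind receptor kinases of the BRI1 family at the cell surface. BRI1 and its relatives BRL1 and BRL3 act with the co-receptor BAK1, and the signal passes through the kinase BIN2 to the transcription factors BZR1 and BES1, which promote cell elongation and repress genes of brassinosteroid synthesis. BRI1 is expressed widely, whereas BRL3 is found mainly in vascular tissue. The cauliflower mosaic virus 35S promoter is active in most plant cells, and the SUC2 promoter is active in the companion cells of the phloem, where the SUC2 protein loads sucrose into the sieve tubes.

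Depth was alike in the 4 libraries, between 21602546 and 22791228 counts. Replicate 2 of BRL3ox stood apart from every other library of the series, at -103 on the second principal component, which held 15.1% of the variance. Between the replicates of BRL3ox 4523 genes lay at least 2-fold apart, against 1016 between those of pSUC2-BRL3. Calls lost without that library are given below, and the plot of list medians shows each BRL3ox replicate alone. Root markers summed to between 3.14 and 8.10 CPM (counts scaled to library size) in the 4 libraries, with between 2 and 5 of the 10 markers at 0, and markers of shoot apex and stomatal lineage summed to between 312 and 341 CPM. Summed CPM of phloem markers ran from 580 to 748 and of epidermis markers from 1820 to 2154. In bulk tissue fewer cells of a type and less RNA per cell cannot be told apart.

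BRL3 was the first gene read. BRL3 (AT3G13380, chromosome 3, 4346330 to 4350939, plus strand, TAIR10.1) stood at 66.2 and 38.6 CPM in pSUC2-BRL3 and at 715 and 817 CPM in BRL3ox. The 2 lines did not overlap, and both lay above the 19.5 and 10.5 CPM of Col-0 and the 0.531 and 0.791 CPM of brl3-2. BRL3 was 14.6-fold higher in BRL3ox than in pSUC2-BRL3 (log2 3.87, SE 0.33, edgeR quasi-likelihood F-test, adjusted p = 0.000955). The call held without replicate 2 of BRL3ox (log2 3.77, adjusted p = 0.00182) and without replicate 1 (log2 3.96, adjusted p = 3.27e-05). The line pSUC2-BRL3 was itself above Col-0 (log2 1.80, SE 0.31, adjusted p = 0.00778). SUC2, the gene whose promoter drove the phloem transgene, was measured at 110.5 and 87.0 CPM in pSUC2-BRL3 and at 118 and 98.9 CPM in BRL3ox, and these ranges overlapped.

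The largest difference among the called genes was that of another gene. HB17 (AT2G01430, chromosome 2, 187608 to 190369, minus strand), which encodes a homeodomain leucine zipper transcription factor, stood at 1.96 and 2.08 CPM in pSUC2-BRL3 and at 679 and 704 CPM in BRL3ox, a difference of 342-fold (log2 8.42, SE 0.38, adjusted p = 1.8e-06). Col-0 had 13.9 and 6.79 CPM and brl3-2 had 2.30 and 3.73 CPM, so both BRL3ox libraries lay far above every other library at 22 °C. At 28 °C, in libraries not used for the difference at 22 °C, HB17 was again low in pSUC2-BRL3 (1.89 and 2.04 CPM) and high in BRL3ox (668 and 655 CPM), with a log2 difference of 8.39 (SE 0.37, adjusted p = 1.61e-06). HB17 also stood below Col-0 in pSUC2-BRL3 (log2 -2.36, SE 0.32, adjusted p = 0.0034). Its annotated neighbours were not called. PIN4, an auxin efflux carrier 3844 bases away, had a log2 difference of -0.24 (adjusted p = 0.484), and AT2G01440, 2795 bases away on the other side, one of 0.19 (adjusted p = 0.448).

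The 250 bases upstream of the annotated starts of SUC2 and HB17 are printed because the first gene lends its promoter to one line and the second differed most between the lines. They were read 5′ to 3′ on the gene's strand from the TAIR10.1 genome by the coordinates of RefSeq, and capitals mark a G-box, CACGTG, a motif bound by many bHLH and bZIP factors. The SUC2 window is chr1:8033157-8033406 and the HB17 window is chr2:190370-190619, both on the minus strand. How much of the SUC2 promoter the transgene holds is not given in the labels, and the RefSeq model of HB17 is marked partial, so its true start may lie elsewhere.
SUC2: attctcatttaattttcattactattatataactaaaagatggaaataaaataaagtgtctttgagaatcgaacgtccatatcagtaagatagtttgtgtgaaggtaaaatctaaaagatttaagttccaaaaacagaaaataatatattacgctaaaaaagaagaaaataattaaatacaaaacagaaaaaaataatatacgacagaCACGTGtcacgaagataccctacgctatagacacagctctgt
HB17: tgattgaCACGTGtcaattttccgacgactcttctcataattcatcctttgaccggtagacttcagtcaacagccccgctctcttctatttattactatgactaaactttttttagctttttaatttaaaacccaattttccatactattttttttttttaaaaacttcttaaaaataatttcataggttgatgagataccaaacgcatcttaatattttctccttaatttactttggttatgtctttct
A G-box, searched on both strands, was found in both windows and in 7.52% of the 20335 windows of tested genes. The brassinosteroid response element, searched as CGTGTG and CGTGCG, was found in neither window and in 6.92% of all. It was in none of the windows of the 4 genes called higher and the 12 called lower for which a window could be read. A match describes the letters and not a bound site.

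Across all tested genes, 17 were called between the lines at 22 °C, which is 0.0829% of those tested. Of these, 4 were higher in BRL3ox (0.0195%) and 13 were lower (0.0634%). At an unadjusted p below 0.05 there were 3599 genes, 1985 higher and 1614 lower. With replicate 1 as the only BRL3ox library 15 genes were called (0.0732%), 7 higher (0.0341%) and 8 lower (0.039%), and 8 of the 17 were among them. With replicate 2 as the only one 6955 were called (33.9%), all 17 among them. Without replicate 1 of pSUC2-BRL3 8 genes were called, and without its replicate 2 there were 3. BRL3, HB17 and PRIN2 kept their calls when any single one of the 4 libraries was left out. DESeq2 called 836 genes, 15 of the 17 among them, and gave no adjusted p for the other two, AT3G05955 and AT3G13404. In counts simulated from the fit to all 16 libraries, edgeR recovered 25% of genes changed 2-fold and 66% of genes changed 4-fold. Each gene there had 1 spread shared by all libraries. The wider spread between the BRL3ox replicates at 22 °C was not simulated, so these rates may not hold for the real comparison.

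**Figure D1:**
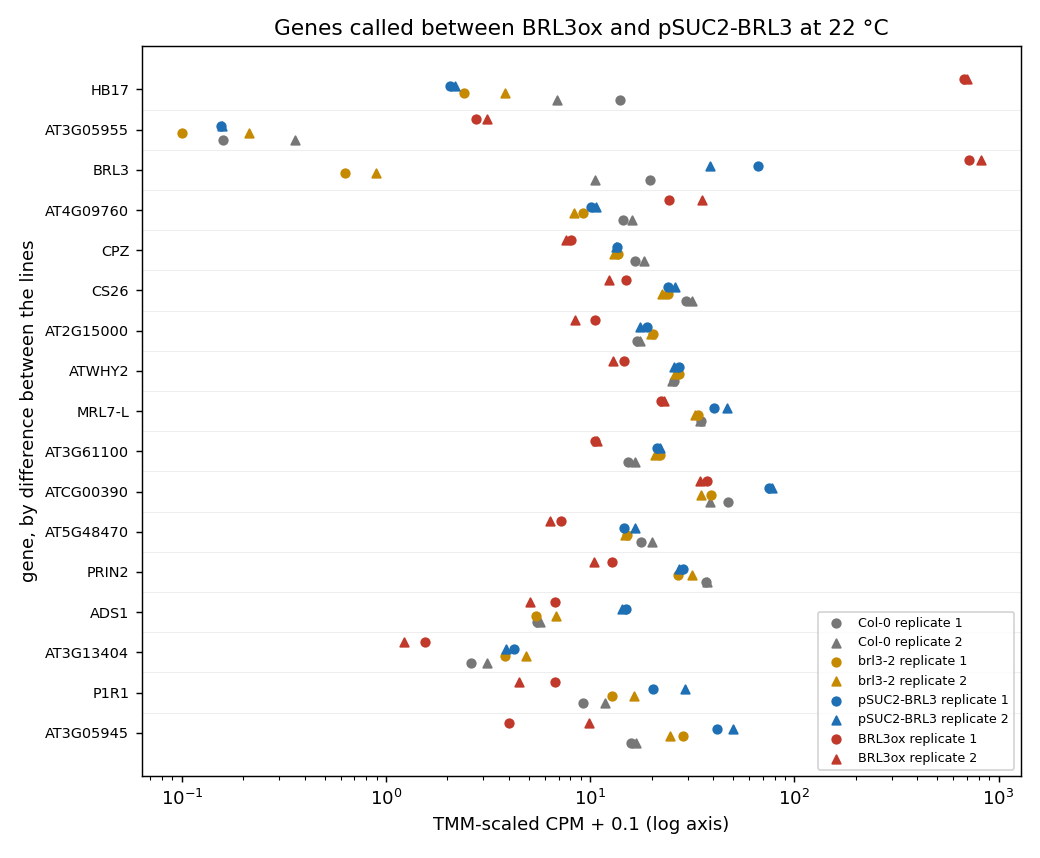
TMM-scaled CPM plus 0.1 (log axis) of the 17 genes called between BRL3ox and pSUC2-BRL3 at 22 °C, 1 point per library, circles for replicate 1 and triangles for replicate 2, with Col-0 and brl3-2 beside them. HB17 and BRL3 in BRL3ox stand above 600 CPM, and the 13 lower genes lie below pSUC2-BRL3 in both BRL3ox libraries.

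PRIN2, AT5G48470 and MRL7-L had lower levels in both BRL3ox libraries than in either of pSUC2-BRL3. PRIN2 (AT1G10522), required for full activity of the RNA polymerase encoded by the plastid genome, stood at 28.5 and 27.2 CPM in pSUC2-BRL3 and at 12.7 and 10.4 CPM in BRL3ox (2.41-fold lower, log2 -1.27, SE 0.13, adjusted p = 0.00361). AT5G48470, annotated as PEP-Related Development Arrested 1, stood at 14.5 and 16.5 against 7.11 and 6.22 CPM (log2 -1.21, SE 0.12, adjusted p = 0.00361). MRL7-L (AT2G31840), a thioredoxin-like protein, was read at 40.2 and 46.4 CPM in pSUC2-BRL3 and at 22.1 and 22.8 CPM in BRL3ox (log2 -0.95, SE 0.11, adjusted p = 0.0073). In these 3 genes both BRL3ox libraries lay below all 6 other libraries at 22 °C. The calls held without replicate 2 of BRL3ox (log2 -1.14, -1.12 and -0.97). Without replicate 2 of pSUC2-BRL3 only that of PRIN2 held.

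CPZ (AT2G04530), a tRNase Z with a chloroplast import signal that trims the ends of transfer RNAs, stood at 13.4 and 13.3 CPM in pSUC2-BRL3 and at 7.99 and 7.48 CPM in BRL3ox (log2 -0.78, SE 0.11, adjusted p = 0.0233). CS26 (AT3G03630), which makes S-sulfocysteine, was read at 24.0 and 25.9 against 14.9 and 12.3 CPM (log2 -0.88, SE 0.13, adjusted p = 0.032). ATWHY2 (AT1G71260), the mitochondrial Whirly protein that binds single-stranded DNA, was read at 27.1 and 25.5 against 14.5 and 12.8 CPM (log2 -0.95, SE 0.14, adjusted p = 0.0315). These 3 had lower levels in both BRL3ox libraries than in the other 6 libraries at 22 °C, and all 3 calls were lost without replicate 2 of BRL3ox (log2 -0.74, -0.74 and -0.86, adjusted p = 0.0525, 0.0573 and 0.0687). The plastid locus ATCG00390, which the reference used here does not name, stood at 75.4 and 77.8 against 37.1 and 34.4 CPM (log2 -1.10, SE 0.14, adjusted p = 0.0172). Here Col-0 had 47.0 and 38.6 CPM and brl3-2 had 39.0 and 35.0 CPM. By edgeR pSUC2-BRL3 was above Col-0 (log2 0.84, adjusted p = 0.00738), and BRL3ox missed the threshold against Col-0 (log2 -0.26, adjusted p = 0.178). ATCG00390 too lost its call between the lines without replicate 2 of BRL3ox (log2 -1.04).

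The remaining named genes with lower levels in BRL3ox have other roles. P1R1 (AT5G57780), an atypical basic helix-loop-helix protein, stood at 20.13 and 29.0 CPM in pSUC2-BRL3 and at 6.59 and 4.40 CPM in BRL3ox (4.44-fold lower, log2 -2.15, SE 0.27, adjusted p = 0.0172). ADS1 (AT1G06080), a desaturase of very long chain fatty acids, stood at 14.9 and 14.2 against 6.59 and 4.97 CPM (log2 -1.33, SE 0.18, adjusted p = 0.0233). Both calls were lost without replicate 2 of BRL3ox, P1R1 with a log2 difference of -1.90 (adjusted p = 0.0568) and ADS1 with one of -1.14 (adjusted p = 0.0656). That of ADS1 was also lost without replicate 1 or replicate 2 of pSUC2-BRL3 (log2 -1.29 and -1.36), and that of P1R1 without replicate 2. For P1R1 the pSUC2-BRL3 libraries were above Col-0 (log2 1.23, adjusted p = 0.0171) and BRL3ox was below it (log2 -0.92, adjusted p = 0.0286). For ADS1 BRL3ox missed the threshold against Col-0 (log2 0.08, adjusted p = 0.759) and pSUC2-BRL3 was above it (log2 1.41, adjusted p = 0.00318). These contrasts share their BRL3ox or pSUC2-BRL3 libraries with the contrast between the lines. AT5G57785, 1925 bases from P1R1, was at 25.6 and 20.3 against 4.41 and 8.17 CPM (log2 -1.87, adjusted p = 0.0748). On the other side AT5G57770, 2039 bases from P1R1, had a log2 difference of -0.46 (adjusted p = 0.654).

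Genes with a locus code alone fell outside the rule for naming and were picked after their values were seen. The long noncoding RNA AT3G05945 stood at 41.7 and 49.9 CPM in pSUC2-BRL3 and at 3.89 and 9.81 CPM in BRL3ox (log2 -2.75, SE 0.31, adjusted p = 0.0073). The long noncoding RNA AT3G05955, 75495 bases from it, had 2 counts in all in pSUC2-BRL3 and 99 in BRL3ox, a ratio of 49.5 (95% counting interval 13.3 to 414). Its call (adjusted p = 0.026) was lost without replicate 2 of BRL3ox (adjusted p = 0.0528). Of the genes near AT3G05945, AT3G29644, 8666 bases away, had a log2 difference of -0.10 (adjusted p = 0.884). AT3G29633, 56562 bases away, was at 0 and 0.0578 against 0.882 and 1.19 CPM (log2 4.94, adjusted p = 0.093). AT3G13404, an uncharacterized protein gene 7240 bases from BRL3, stood at 4.14 and 3.76 against 1.45 and 1.13 CPM (log2 -1.60, SE 0.25, adjusted p = 0.0442). DESeq2 gave it no adjusted p, and of the 10 other alternatives the call held in 2 and was lost in 8, among them those without replicate 2 of BRL3ox (log2 -1.44, adjusted p = 0.0921), with a replicate block (adjusted p = 0.0922) and with nuclear protein-coding genes alone (adjusted p = 0.0536). AT4G09760, of the protein kinase superfamily and annotated with choline synthesis, was higher in BRL3ox, at 24.3 and 35.1 against 9.96 and 10.5 CPM (log2 1.54, SE 0.20, adjusted p = 0.0172). AT3G61100 and AT2G15000 completed the 13, with log2 differences of -1.02 and -0.95 (adjusted p = 0.0204 for each). Without replicate 2 of BRL3ox AT3G61100 lost its call (log2 -1.04, adjusted p = 0.0525), whereas AT2G15000 (log2 -0.80, adjusted p = 0.0495), AT4G09760 (log2 1.25, adjusted p = 0.0494) and AT3G05945 (log2 -3.55, adjusted p = 3.88e-05) kept theirs. Without replicate 2 of pSUC2-BRL3 only BRL3, HB17 and PRIN2 were called, so none of these genes kept its call there. Counting across strands is not described in the sources used here, so reads of overlapping antisense genes could not be separated.

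The same 2 lines were compared at 28 °C in libraries that share nothing with those at 22 °C. At 28 °C 46 genes were called (0.224%), 30 higher (0.146%) and 16 lower (0.078%) in BRL3ox. Both BRL3ox libraries lay above both pSUC2-BRL3 libraries in 20.9% of tested genes at this temperature and below both in 20.2%. BRL3, HB17, AT3G05955 and AT3G05945 were called at both temperatures in the same direction, 23.5% of the 17 genes and 8.70% of the 46. BRL3 at 28 °C was read at 171 and 178 CPM in pSUC2-BRL3 (log2 3.74, SE 0.32, adjusted p = 0.00124). Of the 17 genes, 14 had the same sign at 28 °C, and the same share over all tested genes is not given. ADS1 had the opposite sign at 28 °C (log2 0.66, adjusted p = 0.199). Its line difference at 28 °C minus that at 22 °C was not called (log2 1.98, adjusted p = 0.0575). PRIN2 at 28 °C was read at 17.7 and 16.5 CPM in pSUC2-BRL3 and at 14.3 and 15.9 CPM in BRL3ox (log2 -0.18, adjusted p = 0.797), and AT5G48470 at 21.7 and 19.9 against 22.1 and 21.6 CPM (log2 0.07, adjusted p = 0.95). The difference of the line differences was not called for either (log2 1.09, adjusted p = 0.167, and log2 1.28, adjusted p = 0.061), so a dependence on temperature was not shown for them. That test called 1 gene (0.00488%), PSK4, in which the sign of the line difference turned, and 1604 genes had an unadjusted p below 0.05.

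**Figure D2:**
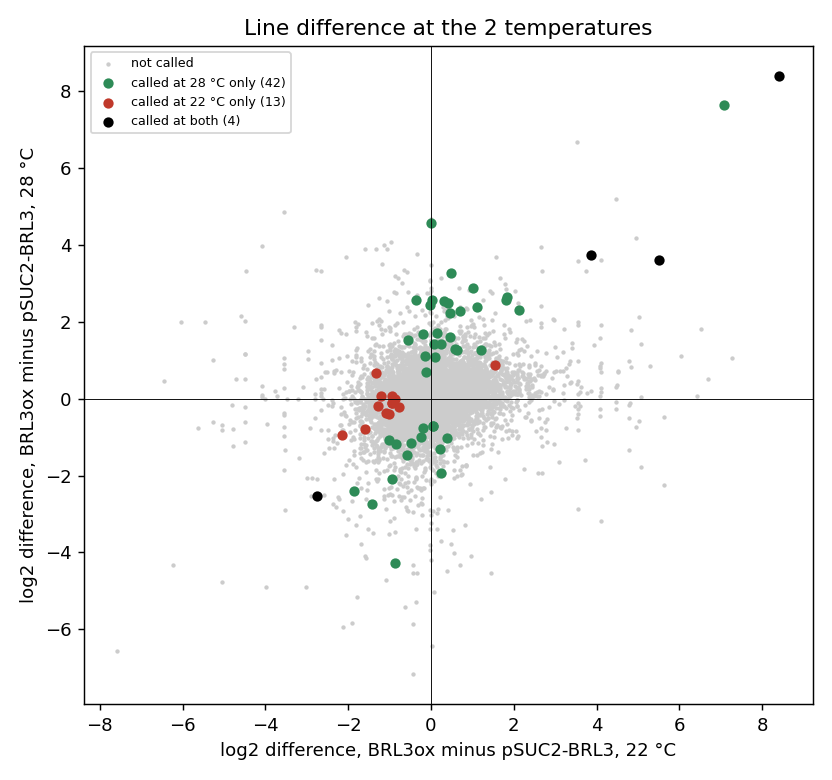
Log2 difference between BRL3ox and pSUC2-BRL3 at 22 °C (x axis) and at 28 °C (y axis) for the 20505 tested genes, 1 point per gene, coloured by where the gene was called. The 4 genes called at both temperatures lie in the upper right and lower left, and most genes called at 22 °C lie near 0 on the y axis.

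Among the receptors and their partners, 1 of 10 tested members was called, BRL3 itself, and the median log2 difference was 0.11 against 0.00 over all tested genes. BRI1 was read at 180.5 and 190.5 CPM in pSUC2-BRL3 and at 183 and 191 CPM in BRL3ox (log2 0.01, SE 0.11, adjusted p = 0.967). BKI1, an inhibitor of BRI1, had a log2 difference of -0.42 (adjusted p = 0.181), SERK1 one of -0.57 (adjusted p = 0.186) and the kinase BSK1 one of 0.52 (adjusted p = 0.213). BRL1, the closest relative of BRL3, did not exceed 1.62 CPM in these 4 libraries.

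Of the 10 genes of brassinosteroid synthesis none was called at 22 °C by edgeR, 8 had an unadjusted p below 0.05 and DESeq2 called 2. Over all 20505 tested genes 3599 had an unadjusted p below 0.05 and DESeq2 called 836. These are the background for such counts in every list below. The median log2 difference over the 10 synthesis genes was 0.31, but -0.14 with replicate 1 as the only BRL3ox library. BR6OX2, which makes brassinolide in the last step, stood at 7.83 and 8.10 CPM in pSUC2-BRL3 and at 3.79 and 4.46 CPM in BRL3ox (log2 -0.95, SE 0.24, adjusted p = 0.134). The 2 lines did not overlap, and at 28 °C BR6OX2 was called lower (14.5 and 20.3 against 3.77 and 4.37 CPM, log2 -2.09, SE 0.23, adjusted p = 0.00517). At 22 °C Col-0 had 24.1 and 22.2 CPM of BR6OX2, and brl3-2 had 10.4 and 10.9 CPM. Both pSUC2-BRL3 (log2 -1.54, adjusted p = 0.00499) and BRL3ox (log2 -2.49, adjusted p = 0.000648) were below Col-0. DWF4, a rate-limiting hydroxylase, stood at 13.4 and 12.8 CPM in pSUC2-BRL3 and at 5.91 and 11.8 CPM in BRL3ox (log2 -0.57, adjusted p = 0.26). It was called with replicate 1 as the only BRL3ox library (log2 -1.14, adjusted p = 0.0345) and at 28 °C (log2 -1.47, SE 0.24, adjusted p = 0.0367). ROT3 (log2 -0.58, adjusted p = 0.152) and BR6OX1 (log2 -1.28, adjusted p = 0.175) were also at lower levels in both BRL3ox libraries. DWF1, an early reductase, was at 377 and 357 against 446 and 620 CPM (log2 0.54, adjusted p = 0.175). CPD, another hydroxylase, showed the spread between the BRL3ox replicates, with 101 and 362 CPM, against 120.4 and 125 CPM in pSUC2-BRL3 (log2 0.92, adjusted p = 0.272, and log2 -0.28 without replicate 2).

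**Figure D3:**
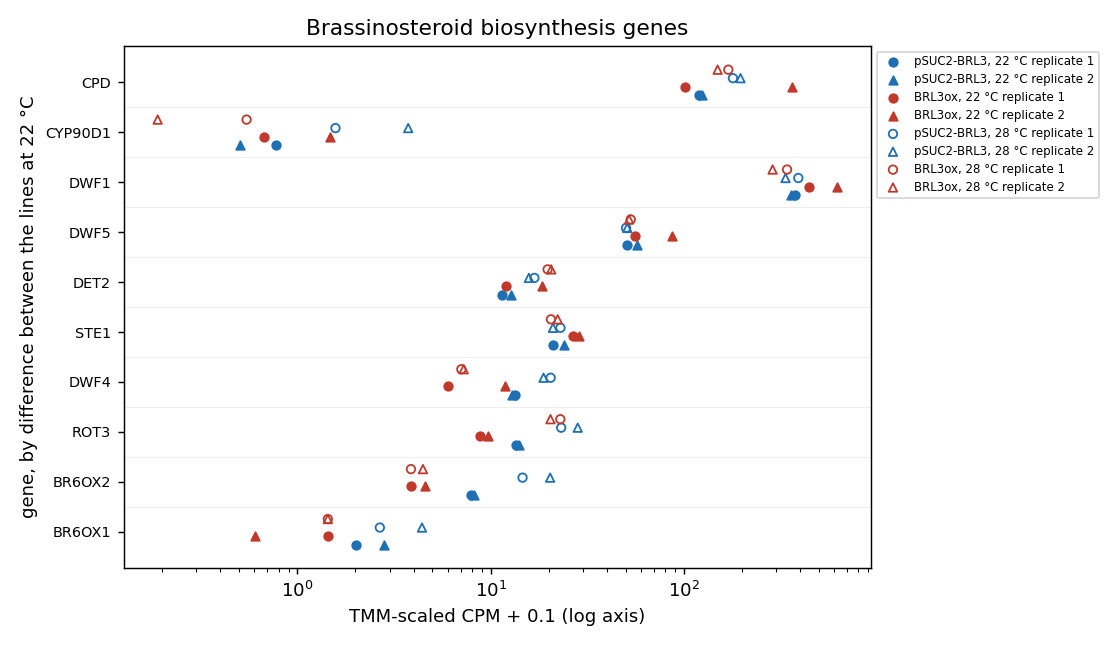
TMM-scaled CPM plus 0.1 (log axis) of the 10 brassinosteroid synthesis genes in both lines at 22 °C (filled) and 28 °C (open), 1 point per library. BR6OX2 is lower in BRL3ox in all libraries of both temperatures, whereas for CPD and DWF4 replicate 2 of BRL3ox at 22 °C lies away from replicate 1.

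Downstream of the receptors, none of 12 tested genes of signalling and hormone inactivation was called by edgeR (2 at an unadjusted p below 0.05, 1 by DESeq2, median log2 -0.15). PRE1, a small helix-loop-helix protein that promotes elongation, stood at 10.6 and 11.6 CPM in pSUC2-BRL3 and at 5.19 and 5.47 CPM in BRL3ox (log2 -1.06, SE 0.20, adjusted p = 0.0906). The transcription factor BES1 was at 394.5 and 427 CPM in pSUC2-BRL3 and at 397 and 149.5 CPM in BRL3ox, so that replicate 2 of BRL3ox alone stood apart. BEH4, a relative of BES1, had a log2 difference of 0.63 (adjusted p = 0.279), and the phosphatase gene BSU1 one of -1.33 (adjusted p = 0.42) at under 1 CPM.

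In the tissue where the SUC2 promoter is active, none of 16 tested phloem genes was called by edgeR or DESeq2, 1 had an unadjusted p below 0.05 and the median log2 difference was 0.14. NAC086, which directs the loss of the nucleus in sieve elements, was at 0.168 and 0.231 against 0.623 and 0.44 CPM (log2 1.40, adjusted p = 0.231). The sieve element filament gene SEOa was at 18.0 and 13.6 against 22.3 and 22.2 CPM (log2 0.49, adjusted p = 0.305). CalS7, a callose synthase of sieve plates, had a log2 difference of -0.44 (adjusted p = 0.416), and the sucrose exporter SWEET11 one of 0.24 (adjusted p = 0.422). None of 14 xylem genes (median log2 0.01) and none of 7 epidermis genes (median log2 0.00) was called by edgeR; at an unadjusted p below 0.05 there were 2 and 3, and by DESeq2 0 and 2. Nearest to a call in these lists was ATML1, a regulator of epidermis identity, at 77.6 and 72.0 against 107 and 126 CPM (log2 0.64, SE 0.13, adjusted p = 0.0906).

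Genes of growth hormones and walls were read next, since hypocotyls grow mainly by elongation. None of 18 tested auxin response genes was called by edgeR (5 at an unadjusted p below 0.05, 1 by DESeq2), and 17 had a negative log2 difference (median -0.76, and -0.28 with replicate 1 as the only BRL3ox library). In 12 both BRL3ox libraries were below both pSUC2-BRL3 libraries, against 19.6% of all tested genes, while at 28 °C 16 of the 18 were positive (median 0.63). IAA29 was at 9.00 and 10.4 against 4.57 and 4.59 CPM (log2 -1.08, adjusted p = 0.158). IAA19 was at 19.7 and 37.5 against 19.2 and 9.37 CPM (log2 -0.99, adjusted p = 0.187). Both encode auxin-induced repressors. In the wider shade and warmth list none of 16 genes was called by edgeR (6 at an unadjusted p below 0.05, 1 by DESeq2, median log2 -0.07), and PIF4, the main factor of warmth-induced growth, was at 163 and 171 against 203 and 293 CPM (log2 0.57, adjusted p = 0.211).

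Of 13 gibberellin genes none was called by edgeR (1 at an unadjusted p below 0.05, 1 by DESeq2, median log2 -0.03), and the receptor gene GID1A came nearest (11.6 and 9.66 against 15.7 and 26.9 CPM, log2 1.00, adjusted p = 0.0955). None of 16 genes of expansins and xyloglucan enzymes, which loosen and remodel walls, was called by edgeR (6 at an unadjusted p below 0.05, 4 by DESeq2, median log2 0.30). EXPA1 was at 417 and 468 against 246 and 120.4 CPM (log2 -1.27, SE 0.36, adjusted p = 0.154), and both BRL3ox libraries lay below. XTH24 was at 97.4 and 84.7 against 94.0 and 631 CPM (log2 1.99, adjusted p = 0.157), high in replicate 2 alone. TCH4, an enzyme gene that responds to touch and brassinosteroid, was at 105.5 and 287 CPM in pSUC2-BRL3 and at 442 and 1100.1 CPM in BRL3ox (log2 1.97, adjusted p = 0.176).

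The list with the highest median was that of genes induced early by wounding and touch. None of its 11 tested members was called by edgeR (2 at an unadjusted p below 0.05, 1 by DESeq2), but all 11 had a positive log2 difference (median 2.08), and in 9 the lines did not overlap, against 16.9% of all tested genes. WRKY33, a defence regulator, was at 9.90 and 26.7 CPM in pSUC2-BRL3 and at 36.7 and 265 CPM in BRL3ox (log2 3.04, SE 1.06, adjusted p = 0.202). ERF104 was at 13.9 and 55.8 against 81.6 and 259 CPM (log2 2.29, SE 0.80, adjusted p = 0.202). TCH3, a calmodulin-like gene, was at 87.6 and 169 against 154 and 376 CPM, where the lines overlapped. The median was 1.05 with replicate 1 as the only BRL3ox library, 2.63 with replicate 2 and 0.37 at 28 °C. Replicate 1 of pSUC2-BRL3 had the lowest value of the 4 libraries in WRKY33, ERF104 and TCH3. Summed over the list at 22 °C, brl3-2 reached 2264 and 1972 CPM and Col-0 1234 and 367 CPM. The BRL3ox sums were 871 CPM for replicate 1 and 2158 CPM for replicate 2, against 190 and 757 CPM for pSUC2-BRL3. The list sums thus did not set BRL3ox above brl3-2. The part of dissection or handling in these values was not tested.

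Other stress lists also had no member called by edgeR. At an unadjusted p below 0.05 there were 4 cold-regulated, 3 salicylic acid, 0 jasmonate, 2 abscisic acid, 1 heat shock, 4 osmoprotectant, 1 hypoxia and 4 iron genes, and DESeq2 called 1 each of the salicylic acid, osmoprotectant, hypoxia and iron genes. In the cold-regulated list the median over 14 genes was 0.65 (0.58 with replicate 1 and 0.83 with replicate 2 as the only BRL3ox library). At 28 °C the median was -0.53, with 13 of the 14 genes negative. The list there summed to 3544 and 850 CPM in pSUC2-BRL3 and to 1576 and 1976 CPM in BRL3ox. In these sums only replicate 1 of pSUC2-BRL3 lay above BRL3ox, so a turn of sign with temperature was not shown. At 22 °C CBF2 was at 0.391 and 8.33 against 10.4 and 94.5 CPM (log2 3.59, SE 1.33, adjusted p = 0.215). In the salicylic acid list the median over 11 genes was 0.85 (0.29 with replicate 1 alone and 0.60 with replicate 2 alone), and CBP60G, an activator of salicylic acid synthesis, was at 1.23 and 3.99 against 6.59 and 35.6 CPM (log2 3.01, SE 0.78, adjusted p = 0.137). Heat shock genes, 14 in number, had a median of -0.01, but of 0.26 with replicate 1 alone and -1.04 with replicate 2 alone. The median over 14 jasmonate genes was 0.50, and 0.20 and 0.62 with the single replicates in that order. The medians were -0.13 over 12 abscisic acid genes and 0.07 over 15 genes of osmoprotectants such as proline and trehalose. The trehalase gene TRE1 was at 5.26 and 7.81 against 10.4 and 25.1 CPM (log2 1.44, adjusted p = 0.124), and P5CS1, an enzyme of proline synthesis, was at 59.8 and 48.3 against 24.3 and 33.3 CPM (log2 -0.91, adjusted p = 0.214). Over 9 hypoxia genes the median was -0.33, and over 15 iron genes it was 0.43, but 0.64 with replicate 1 and -1.37 with replicate 2 as the only BRL3ox library. Medians at 28 °C were 0.07 for salicylic acid, 0.42 for heat shock, 0.46 for jasmonate and 0.14 for abscisic acid genes. They were 0.21 for osmoprotectant, -0.13 for hypoxia and 0.19 for iron genes.

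Clock genes separated the BRL3ox replicates. None of 17 was called by edgeR with both replicates (7 at an unadjusted p below 0.05, 4 by DESeq2, median 0.72, 0.19 with replicate 1 and 1.07 with replicate 2). PRR9, a repressor of the central oscillator, stood at 5.37 and 6.13 CPM in pSUC2-BRL3 and at 11.4 and 30.7 CPM in BRL3ox (log2 1.87, SE 0.34, adjusted p = 0.0872). It was called with replicate 1 as the only BRL3ox library (log2 0.98, adjusted p = 0.0456). GI was at 7.38 and 7.46 against 12.8 and 42.3 CPM (log2 1.88, adjusted p = 0.109), and PRR5 was at 0.168 and 0.174 against 0.363 and 10.7 CPM. In all 3 genes replicate 2 was the highest of the 4 libraries. The time of harvest is not given in the labels, and its part in these differences was not tested.

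**Figure D4:**
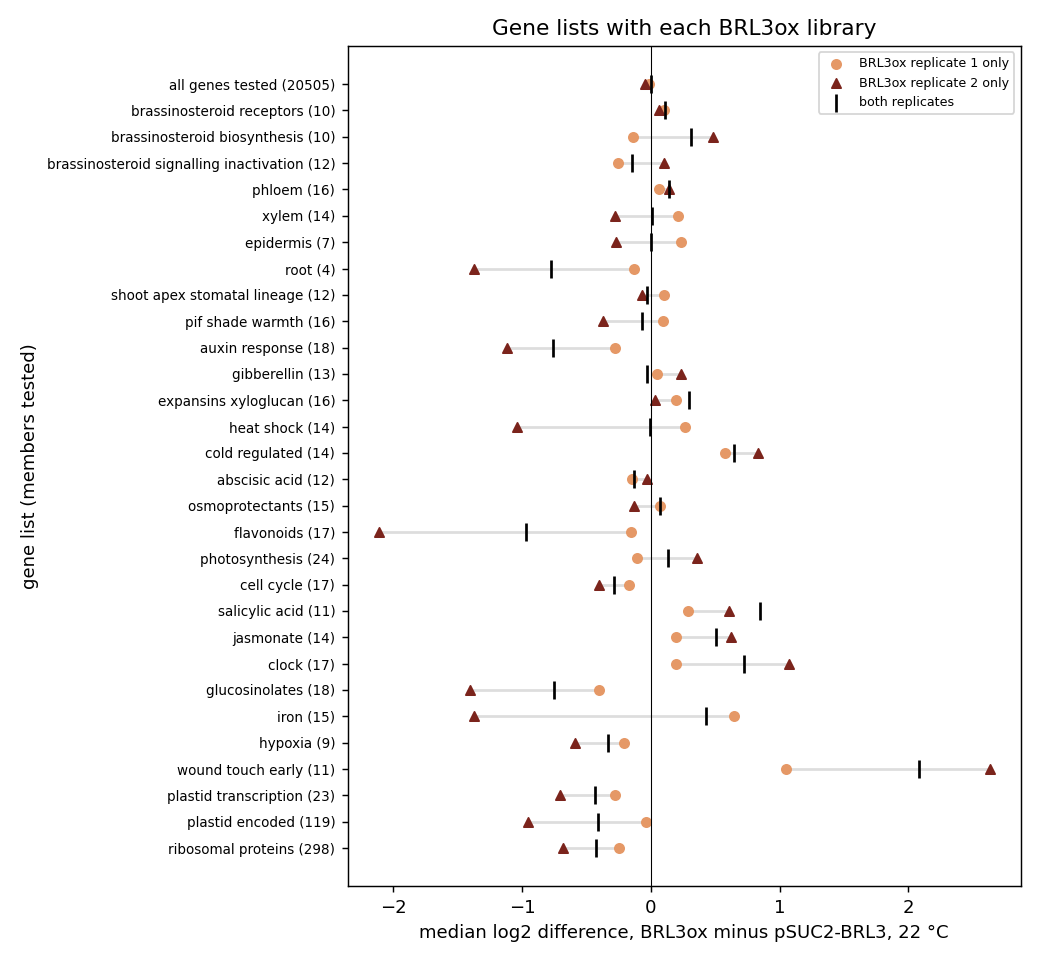
Median log2 difference between BRL3ox and pSUC2-BRL3 at 22 °C over the tested members of each gene list, with replicate 1 of BRL3ox alone (circles), replicate 2 alone (triangles) and both (bars), and the number of members in brackets. The median over all genes lies near 0 in each, while the lists of iron, flavonoid and wound and touch genes move most between the BRL3ox libraries.

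Flavonoid, glucosinolate and photosynthesis genes were described as outputs of metabolism. None of 17 flavonoid genes was called by edgeR (1 at an unadjusted p below 0.05, 1 by DESeq2), and 16 were negative (median -0.97, -0.16 with replicate 1 and -2.11 with replicate 2 as the only BRL3ox library). DFR, which makes anthocyanin precursors, was at 23.5 and 15.04 against 6.43 and 6.35 CPM (log2 -1.59, SE 0.46, adjusted p = 0.154), and the lines did not overlap. TT4, the chalcone synthase gene, was at 284 and 332 against 178 and 91.0 CPM (log2 -1.19, adjusted p = 0.297). None of 18 glucosinolate genes was called by edgeR (4 at an unadjusted p below 0.05, 1 by DESeq2), and 16 were negative (median -0.75, -0.40 with replicate 1 alone and -1.40 with replicate 2 alone). In 11 of the 18 both BRL3ox libraries were below, against 19.6% of all tested genes. Summed over the list, pSUC2-BRL3 had 1127 and 1373 CPM and BRL3ox 1208 and 1823 CPM, so the total was not lower in BRL3ox. CYP79B3, which starts the indole branch, was at 82.9 and 55.8 against 27.2 and 32.8 CPM (log2 -1.21, adjusted p = 0.155). None of 24 photosynthesis genes (median 0.13, and -0.11 without replicate 2 of BRL3ox) and none of 17 cell cycle genes (median -0.29, 15 negative) was called by edgeR or DESeq2, and 0 and 1 of them had an unadjusted p below 0.05. Medians at 28 °C were 0.81 for flavonoid, -0.72 for glucosinolate, -0.45 for photosynthesis and 0.10 for cell cycle genes. All 24 photosynthesis genes were negative at that temperature.

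After PRIN2 and AT5G48470, factors of plastid transcription, were called, that machinery was listed in full, and its counts are therefore a description with no weight of their own. PRIN2, AT5G48470 and MRL7-L, which prompted the list, were the 3 called of 23 tested (13 at an unadjusted p below 0.05, 8 by DESeq2), and 21 of the 23 were negative (median -0.43, and -0.12 at 28 °C). The median was -0.28 with replicate 1 alone and -0.71 with replicate 2 alone. In 15 both BRL3ox libraries lay below both of pSUC2-BRL3, against 19.6% of all tested genes. PDE312, a subunit associated with the plastid polymerase, was at 43.0 and 39.2 against 26.4 and 20.6 CPM (log2 -0.81, SE 0.14, adjusted p = 0.0624). FLN2, a fructokinase-like component of it, had a log2 difference of -1.13 (adjusted p = 0.0906), TRXZ, its thioredoxin, one of -0.84 (adjusted p = 0.103) and PTAC12 one of -0.71 (adjusted p = 0.105). Of the sigma factors, which give the polymerase its promoters, SIG2 had a log2 difference of -0.25 (adjusted p = 0.422) and SIGE one of -0.48 (adjusted p = 0.349).

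**Figure D5:**
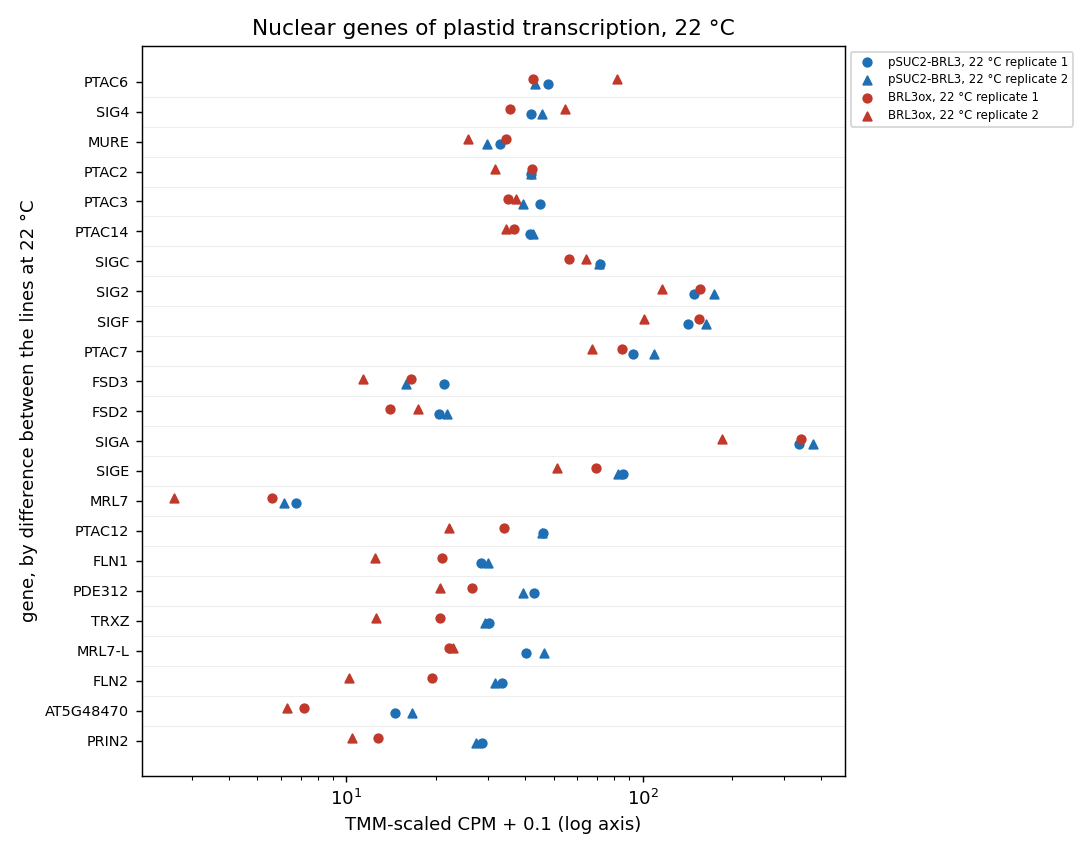
TMM-scaled CPM plus 0.1 (log axis) of the 23 listed nuclear genes of plastid transcription in both lines at 22 °C, 1 point per library. PRIN2, AT5G48470 and MRL7-L, at the bottom, are low in both BRL3ox libraries, and PTAC6 at the top is high in replicate 2 alone.

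Transcripts from the plastid genome were counted too. Their share of the counts was 3.22% and 2.86% in the pSUC2-BRL3 libraries, above the 2.15% and 1.63% of BRL3ox. In the other libraries at 22 °C it was 4.66% and 2.75% in Col-0 and 2.03% and 2.19% in brl3-2. Of the loci, 1 of 119 tested, ATCG00390, was called by edgeR (32 at an unadjusted p below 0.05, 14 by DESeq2, median log2 -0.41, 78 negative). With replicate 1 as the only BRL3ox library the median was -0.04. At 28 °C the median was -0.50, with 109 of the 119 loci negative. The libraries selected messenger RNA by its poly(A) tail, which plastid transcripts mostly lack, and the part of that selection in these shares was not tested. None of 298 tested genes of ribosomal proteins, also listed afterwards, was called by edgeR (164 at an unadjusted p below 0.05, 93 by DESeq2, against 3599 and 836 of all 20505 genes). Of these 271 were negative, with a median of -0.42 (-0.24 with replicate 1 and -0.68 with replicate 2 as the only BRL3ox library), and in 205 both BRL3ox libraries lay below, against 19.6% of all tested genes. They took 4.61% and 4.44% of the counts of the pSUC2-BRL3 libraries, against 4.02% and 2.85% for BRL3ox.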

How the data were processed

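The deposited table holds raw read counts per gene, made by the authors; per the submitters' processing notes the tools were FastQC 0.11.2, Trimmomatic 0.38, HISAT2 2.1, featureCounts 1.6.2 and edgeR 3.34.1, with the TAIR10 build. Per the labels' protocols, stranded messenger RNA libraries were made from RNA whose integrity numbers exceeded 7. Neither the annotation nor the layout and strandedness used in counting is stated there. Of 33297 lines 33296 carried a gene name, and the line without one, at most 0.00463% of a library, was left out. Of the names, 33011 matched a RefSeq locus.

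Genes were tested with edgeR 4.0.16 in R 4.3.3 by its two-sided quasi-likelihood F-test, fitted once to the 16 libraries with 1 term for each of the 8 groups, which left 8 residual degrees of freedom. Library sizes were scaled by TMM, and filterByExpr with minima of 10 counts and 15 in total kept 20505 genes. Calls had a Benjamini-Hochberg adjusted p below 0.05 over all of them. CPM are TMM-scaled, and values in the order replicate 1, replicate 2 have n = 2 per group. The script was tested on simulated data. Lists were described by counts and medians, with no list test. With 1 library of a line left, that library was assumed to vary like the other groups. The 95% interval and the limits of low counts cover counting error only.

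The members and lists were chosen with earlier results of these data known. Named genes were BRL3, then genes with a symbol, a mean of 5 CPM or more in the higher line and no overlap between the lines, up to 10 in each direction, those called at both temperatures, and up to 4 members per list by adjusted p. Other genes named were picked after their values were seen. Alternatives were the Wald test of DESeq2 1.42.0, DESeq2 size factors in edgeR, omission of the low-count filter, nuclear protein-coding genes alone, a replicate block, the 4 libraries alone and each library left out. Figures were drawn with matplotlib 3.10.9.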

Additional observations from a re-analysis of the deposited data

Results flagged for a closer look

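PSK4, the precursor of a phytosulfokine growth peptide, differed between the temperatures in how the lines compared. At 22 °C it stood at 21.3 and 19.5 CPM in pSUC2-BRL3 and at 15.8 and 12.01 CPM in BRL3ox (log2 -0.55, SE 0.17, adjusted p = 0.17), and at 28 °C at 20.14 and 17.5 against 56.8 and 51.5 CPM (log2 1.52, SE 0.17, adjusted p = 0.00517). The line difference at 28 °C minus that at 22 °C was 2.07 on the log2 scale (SE 0.24, edgeR quasi-likelihood F-test, adjusted p = 0.0477), and the lines did not overlap at either temperature. The call was lost with a replicate block (log2 2.08, adjusted p = 0.131) and without any single library of pSUC2-BRL3 at 22 °C or of either line at 28 °C (adjusted p from 0.088 to 0.247). It held without replicate 2 of BRL3ox at 22 °C (log2 1.89, adjusted p = 0.0308) and without replicate 1 (log2 2.29, adjusted p = 0.000393).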

How the results depend on the processing

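The 17 genes called at 22 °C (4 higher, 13 lower) became 836 with DESeq2 (448 and 388), 1 with the 4 libraries alone (HB17, with 1 higher and 0 lower), and 68 (36 and 32) when 1 library of each of the 2 pairs farthest apart was left out (BRL3ox replicate 2 at 22 °C, pSUC2-BRL3 replicate 1 at 28 °C), an alternative chosen after seeing the data. Leaving out 1 library gave 3 to 6955 genes, 2 to 3570 of them higher and 1 to 3385 lower; without replicate 1 of pSUC2-BRL3 there were 8, and without replicate 2 there were 3. DESeq2 size factors (18), no low-count filter (19) and nuclear protein-coding genes (13) stayed within 1.5 times. At 28 °C the 46 genes became 301 with DESeq2, 29 with a replicate block and 1500 without those 2 libraries, and 5 to 152 with 1 library left out (152 without replicate 1 of pSUC2-BRL3). The 1 gene called between temperatures became 81 with DESeq2, 3 with no filter, 0 with the block, 206 without those 2 libraries, and 0 to 3823 with 1 library left out. BRL3 at 22 °C missed the threshold with the 4 libraries alone (log2 3.89). None of the differences of the 17 genes, of the 4 genes called at both temperatures or of PSK4 reversed under the alternatives run for them. Same-numbered replicates of the lines deviated with correlations of 0.0715 at 22 °C and 0.136 at 28 °C. Whether they share a batch or handling was not tested. Early wound and touch genes summed higher for replicate 2 than for replicate 1 in both lines at both temperatures. At 28 °C the sum went from 232 to 755 CPM for pSUC2-BRL3 and from 307 to 991 CPM for BRL3ox. For Col-0 and brl3-2 at 22 °C replicate 1 had the higher sum. The block called 14 genes at 22 °C, all among the 17. Except for settings with fewer genes or libraries, the cause of these shifts was not tested. In the simulated counts, with 2 libraries a line and a spread shared by all libraries, changes of 2-fold were mostly below detection.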
